A study of Mus musculus with 5 samples.

Results

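The initiation zones described here are the narrow ones of the mouse autosomes, those under 1 kb wide. They were picked by their width alone, and 2701 of the 35138 autosomal zones met this rule, or 7.69%. The whole list holds 35512 zones. It comes from CGR8, an established mouse embryonic stem cell line, grown with serum and leukaemia inhibitory factor and without feeder cells. Nascent strands of 0.5 to 2 kb were taken from 3 independent cultures and freed of other DNA with lambda exonuclease. The 2 controls, also of CGR8, were genomic DNA sonicated to that size and given the exonuclease, and nascent strand fractions treated with RNase A before the digestion. The list combines the 3 nascent strand samples, and the controls were not analysed here.

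DNA replication starts at origins, where the origin recognition complex loads the MCM helicase in G1 phase and a part of the loaded helicases is activated in S phase. Each new strand begins with a short RNA primer, and this primer shields a nascent strand from lambda exonuclease, which digests DNA from the 5′ end. Many origins are used in a fraction of cells only, and origins that lie close together form initiation zones. In mammalian cells, origins are known to be dense in gene-rich, early replicating chromatin and sparse in late replicating chromatin.

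The list gives a chromosome, a start and an end per zone in build mm9, and no read number, so the depth behind a zone is unknown. It holds 1 pooled value per zone, so no spread between cultures can be given. No test was run for the same reason, and because width and spacing come from the same list. The spread given is the SD over the 19 autosomes, which are not biological replicates. Sequence and genes under the zones were not analysed here, because the tables given are of another build than mm9.

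The width that chose the zones is described first. Zones in the list are built of steps of 200 bp. Of the 2701 narrow zones, 1735 were 800 bp wide, 890 were 600 bp, 73 were 400 bp and 3 were 200 bp. Just outside the limit lay 2006 zones of 1000 bp and 1979 of 1200 bp, so the numbers rose up to 1000 bp and then levelled off, and the limit of 1 kb cuts through no break. The narrow zones together covered 1.95 Mb, or 1.403% of the 139.1 Mb covered by autosomal zones. Their widths lay near or below the lower end of the strand sizes taken from the gradient.

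The 3 zones of 200 bp, named because they were so few, had unlike surroundings. The first, chr5:58648001-58648200, was 189.2 kb from the nearest zone and had 1 zone of 1 kb or more within 500 kb. The second, chr14:105114801-105115000, was 87.4 kb from the nearest zone and had 10 such zones within 500 kb. The last, chr14:118340401-118340600, lay 2.2 kb from a zone of 2200 bp and had 16 such zones around it. Zones of 400 bp, too, stood farther from others than the wider members. Their median distance to the nearest zone was 40.4 kb (n = 73), against 32.2 kb for zones of 600 bp (n = 890) and 28.6 kb for zones of 800 bp (n = 1735). Zones of 1000 bp, outside the limit, had 27.0 kb (n = 2006).

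Whether narrow zones flank wider ones was read from the distance between zone edges. A zone of 1 kb or more lay within 10 kb of 632 narrow zones, or 23.4%, against 45.1% of all autosomal zones, members included. Another zone of any width lay within 10 kb of 701 narrow zones, or 26.0%, against 46.6% of all autosomal zones. Zones within 10 kb on both sides were found for 97 narrow zones, or 3.59%, against 13.8% of all. Most narrow zones therefore neither flanked a wider zone at this distance nor lay between zones, and the same held for most autosomal zones. Of the sequence outside zones of 1 kb or more, 5.19% lay within 2 kb of such a zone, 6.52% at 2 to 5 kb and 8.79% at 5 to 10 kb. These parts held 5.74%, 7.29% and 10.4% of the narrow zones, so narrow zones were not scarcer beside wider ones than an even spread gives.

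The members fell into 4 settings. Besides the 632 with a wider zone within 10 kb, 69 had only other narrow zones within 10 kb (2.55%). Of all autosomal zones, 45.1% had a wider zone and 46.6% any zone within 10 kb. The largest group, 1470 narrow zones (54.4%), had its nearest zone between 10 and 100 kb away. Steps of 10 to 20, 20 to 50 and 50 to 100 kb held 14.8%, 23.8% and 15.8% of the narrow zones. They held 16.9%, 20.9% and 9.22% of all autosomal zones, so this setting was frequent in the whole list too. The remaining 530 narrow zones (19.6%) stood alone, with no zone within 100 kb on either side, against 6.44% of all autosomal zones. The median number of wider zones within 500 kb was 20 for the zones that flank a wider one, 11 for those at 10 to 100 kb and 3 for those that stood alone. Distance to other zones defines the settings, so this order follows in part from their definition. Zones of 800 bp made up similar shares of these settings, 64.1% of the flanking zones and 62.8% of the lone ones.

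Distance to the nearest zone fell steadily with width. Narrow zones had a median of 29.6 kb (quartiles 9.4 and 77.6 kb), zones of 1 to 1.8 kb had 21.6 kb, zones of 2 to 4.8 kb had 11.8 kb and zones of 10 kb or more had 2.2 kb. A neighbour within 10 kb was found for 30.7% of the zones of 1 to 1.8 kb and for 82.8% of those of 10 kb or more. The closest spacing was also least frequent among narrow zones. A gap of 800 bp, the smallest in the list, bordered 40 of them (1.48%), against 5.75% of all autosomal zones and 17.7% of those of 10 kb or more. No smaller gap occurs, so a narrow stretch nearer than this to another zone cannot appear as a zone of its own.

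**Figure D1:**
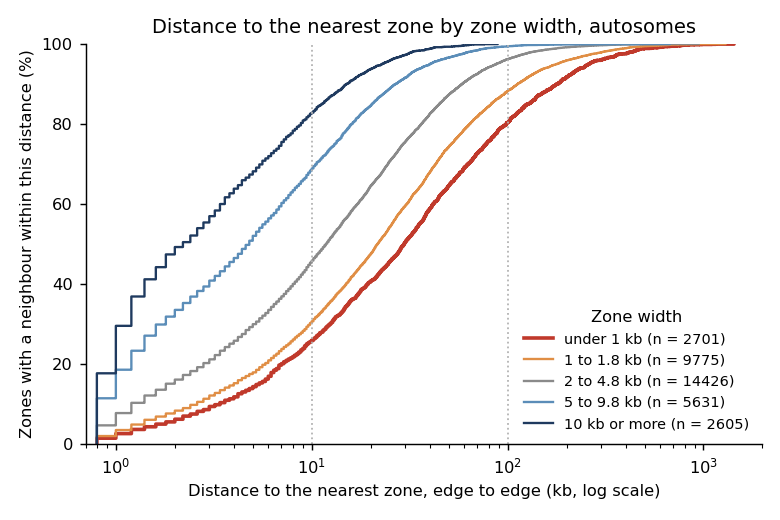
Cumulative share of autosomal zones (vertical axis, %) with another zone within a given edge-to-edge distance (horizontal axis, kb, log scale), 1 line per width class, dotted lines at 10 and 100 kb. The line of the 2701 zones under 1 kb lies lowest at both marks, at 26.0% within 10 kb and 80.4% within 100 kb, and that of the zones of 10 kb or more lies highest, at 82.8% and 100%.

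The contrast with the other zones had the same direction on all 19 autosomes. Per autosome, 26.2% ± 5.35 (SD, n = 19) of the narrow zones had a neighbour within 10 kb, against 46.5% ± 8.82 of the other zones. Narrow zones were lower on 19 of 19 autosomes, by 10.9 percentage points on chromosome 16 and by 32.4 on chromosome 15. Against zones of 1 to 1.8 kb, the class nearest in width, the share was lower on 18 of 19 autosomes, by a mean of 4.54 percentage points (SD 3.22), and 0.45 higher on chromosome 19. With 61 to 233 narrow zones per autosome, the single values are coarse.

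Much of this difference went with the number of zones in the surroundings. When autosomal zones were sorted into 9 classes by the wider zones within 500 kb, narrow and other zones of the same class had similar neighbour shares. The class count includes wider zones within 10 kb, so it overlaps with the neighbour share it is set against. With 10 to 14 wider zones around, 24.5% of narrow and 26.3% of other zones had a neighbour within 10 kb. With 20 to 29 around, the shares were 44.3% and 50.4%, and with 40 or more they were 79.2% (n = 106 narrow zones) and 82.5%. Narrow zones were higher with none around, at 5.0% (n = 80) against 1.97%, and with 3 to 4 around, at 12.2% against 9.81%. In all other classes they were lower. Weighted to the classes of the narrow zones, the other zones had 28.8% and zones of 1 to 1.8 kb had 24.9%, beside 26.0% for the narrow ones. Within 2 kb, 6.22% of the narrow zones had a neighbour, and the other zones weighted in this way had 9.16%. In the densest class these shares were 28.3% and 44.4%, and with 5 to 9 wider zones around they were 3.18% and 2.96%.

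The wider zones beside narrow ones were mostly small, as most zones of the list are. All autosomal zones, members included, had a median width of 2600 bp. Of the 32437 autosomal zones of 1 kb or more, 9775 were 1 to 1.8 kb wide and 2605 were 10 kb or more. The nearest wider zone of the 632 flanking members was 2400 bp wide in the median case, between quartiles of 1600 and 4000 bp, and in 34.2% it was 1 to 1.8 kb wide. In 14 cases, or 2.22%, it was a zone of 10 kb or more. The gap was 2 kb or less in 155 cases, 2 to 5 kb in 197 and 5 to 10 kb in 280. A wider zone within 10 kb on both sides was found for 85 of the 632, and the other 547 had one on 1 side.

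Zones of 10 kb or more had few narrow zones at their flanks. Only 27 narrow zones, or 1.00%, lay within 10 kb of such a zone, against 9.26% of all autosomal zones. Sequence free of zones of 1 kb or more measured 32.6 Mb within this distance and 2079 Mb at 100 kb or farther. An even spread would therefore also place few narrow zones within 10 kb. Of the 2605 zones of 10 kb or more, 29 (1.11%) had a narrow zone within 10 kb, and 1 of these had a narrow zone on each side. That one was chr2:165605401-165620400, 15 kb wide, with 800 bp zones 3600 bp before and 5600 bp after it. The widest zone with a narrow neighbour was chr19:3977201-4013200, 36.0 kb wide, with a 600 bp zone 9000 bp away. Next in width were chr9:43118201-43144200 (26.0 kb), chr8:14910601-14935000 (24.4 kb) and chr5:34023801-34045800 (22.0 kb), each with 1 narrow zone at 7400, 7400 and 6000 bp. Another zone of 22.0 kb, chr5:137954601-137976600, had 1 at 1400 bp.

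The density of narrow zones was then measured in rings around the zones of 10 kb or more, over sequence free of zones of 1 kb or more. Within 10 kb there were 27 narrow zones in 32.6 Mb, which gives 0.83 per Mb with a 95% exact Poisson interval of 0.55 to 1.21 that covers counting error only. At 100 kb or farther there were 2462 in 2079 Mb, or 1.18 per Mb (1.14 to 1.23). Within 5 kb, 8 narrow zones in 18.4 Mb gave 0.44 per Mb (0.19 to 0.86), and between 5 and 100 kb 231 zones gave 1.32 per Mb (1.15 to 1.50). Since no gap in the list is under 800 bp, sequence nearer than that to a wider zone cannot hold a narrow zone, and this lowers the inner rings most. With it left out, a choice made after these values were seen, the density was 0.61 per Mb within 5 kb (0.26 to 1.19), 1.03 within 10 kb (0.68 to 1.50) and 1.204 at 100 kb or farther (1.16 to 1.25). Between 5 and 100 kb it was then 1.41 per Mb (1.24 to 1.61), above the interval for within 5 kb. On 14 autosomes no narrow zone lay within 5 kb of a zone of 10 kb or more, so the density there rests on few zones and the difference was not tested. The ratio of the density within 10 kb to that beyond 100 kb was 0.70 over all autosomes, and over single autosomes it was 0.66 ± 0.72 (SD, n = 19), above 1 on 6. Zones of 1 to 9.8 kb behaved otherwise, with 54.7 per Mb within 10 kb and 9.85 per Mb beyond 100 kb, a ratio of 5.56. Their density was taken over all sequence outside zones of 10 kb or more, a larger base than that of the narrow zones.

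**Figure D2:**
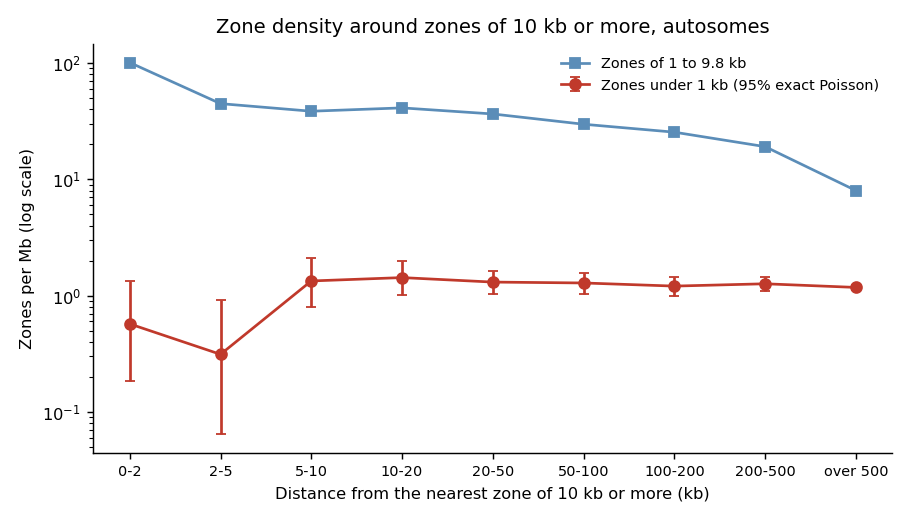
Zones per Mb (vertical axis, log scale) by distance from the nearest zone of 10 kb or more (horizontal axis, kb), for zones under 1 kb with 95% exact Poisson intervals and for zones of 1 to 9.8 kb, over all autosomes and with the sequence within 800 bp of wider zones included. Narrow zones are counted per Mb free of zones of 1 kb or more, and zones of 1 to 9.8 kb per Mb outside zones of 10 kb or more. The line of the wider class falls from 100.7 per Mb within 2 kb to 7.998 per Mb beyond 500 kb, while that of the narrow zones stays between 1.18 and 1.43 per Mb from 5 kb outward and is lowest at 2 to 5 kb, where it rests on 3 zones.

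Around all zones of 1 kb or more the profile was different. Free sequence within 2 kb of such a zone held 1.31 narrow zones per Mb (155 zones), that at 5 to 10 kb held 1.401 (280 zones) and that at 20 to 50 kb held 1.28 (608 zones). Density was lower farther out, at 0.91 per Mb between 200 and 500 kb (252 zones) and 0.64 per Mb beyond 500 kb (80 zones). Over single autosomes the density was 1.26 ± 0.47 within 2 kb and 1.22 ± 0.27 at 50 to 100 kb, a difference below the spread, and 0.71 ± 0.42 beyond 500 kb (SD, n = 19). Whether mappable sequence is scarcer in those stretches was not tested.

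Stretches between consecutive wider zones show the same from another side. Of 32418 such stretches, 2273 (7.01%) held at least 1 narrow zone: 1944 held 1, 260 held 2, 53 held 3, 10 held 4 and 6 held 5 or more. The narrow zones took no favoured place in them. By the distance to the nearer wider zone over the free length, their positions were sorted into 5 equal steps from the edge of the stretch to its middle. From the edge inward the steps held 20.5%, 20.3%, 21.3%, 18.0% and 19.9% of the narrow zones, where an even spread gives each the same share. Narrow zones numbered 1.28 to 1.38 per Mb in stretches from 10 to 500 kb long and 0.87 per Mb in the 696 stretches of over 500 kb. In the 5750 stretches of 2.6 to 10 kb they numbered 1.08 per Mb (38 zones), and in the 4137 shorter ones 0.53 (3 zones). As no gap in the list is under 800 bp, the shortest stretches have little or no room for a narrow zone, which lowers the 7.01% above.

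Lone narrow zones were compared with all zones. No zone within 100 kb was the setting of 19.6% of the members, against 6.44% of all autosomal zones and 11.8% of those of 1 to 1.8 kb. Per autosome the share was 19.8% ± 4.94 (SD, n = 19). Chromosome 11 had the lowest value, 11.3%, and chromosome 16 the highest, 31.0%. On 19 of 19 autosomes it exceeded that of the other zones. With no zone within 500 kb there were 30 narrow zones, or 1.11%, against 0.276% of all. A stretch of over 500 kb without a zone bordered 295 narrow zones (10.9%), against 3.13% of all. No zone of 1 kb or more within 500 kb was found for 80 narrow zones (2.96%), against 0.66% of all.

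The 5 narrow zones farthest from any other were spread over 5 chromosomes. The farthest, chr2:88803001-88803400, was 400 bp wide and 1431.6 kb from its nearest zone, itself narrow at 600 bp. The second, chr7:61730401-61731200, lay 1157.0 kb from a zone of 1000 bp and 2406.6 kb from the zone on its other side. The next were chr14:110970401-110971200 at 1102.6 kb, chr3:78053601-78054400 at 978.8 kb and chr8:7291201-7291800 at 949.0 kb.

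Zone-dense and zone-poor regions were compared over 2385 windows of 1 Mb, classed by their number of zones of 1 kb or more so that the members did not enter the classes. The windows held 2673 of the narrow zones. Narrow zones made up 27.1% of the zones in windows with 1 to 4 wider zones, 16.5% in those with 5 to 9, 8.31% with 10 to 19, 4.96% with 20 to 29 and 2.33% with 30 or more. Their share in the poorest of these classes exceeded that in the densest on 19 of 19 autosomes, by 24.2 percentage points ± 5.27 (SD, n = 19). Wider zones set the classes and also enter the denominator of the share, so its fall toward dense windows is largely fixed by construction. The number of narrow zones changed far less than their share. It was 0.88 per Mb in windows with 1 to 4 wider zones, 1.35 with 5 to 9, 1.28 with 10 to 19, 1.25 with 20 to 29 and 0.94 with 30 or more.

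Wider zones rose 16.7-fold from the windows with 1 to 4 of them to those with 30 or more, as the classes require. Narrow zones differed 1.81-fold between the highest and the lowest class, and not in step with the wider ones. In windows without any wider zone, 95 narrow zones in 127 windows gave 0.75 per Mb. Density at 10 to 19 wider zones exceeded that at 1 to 4 on 17 of 19 autosomes, by 0.37 per Mb ± 0.32 (SD), and that at 30 or more on 14 of 19, by 0.21 ± 0.58. The second of these differences is smaller than its spread. Wider zones covered 24.4% of the densest windows, and counted over the free sequence there the narrow zones numbered 1.25 per Mb.

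**Figure D3:**
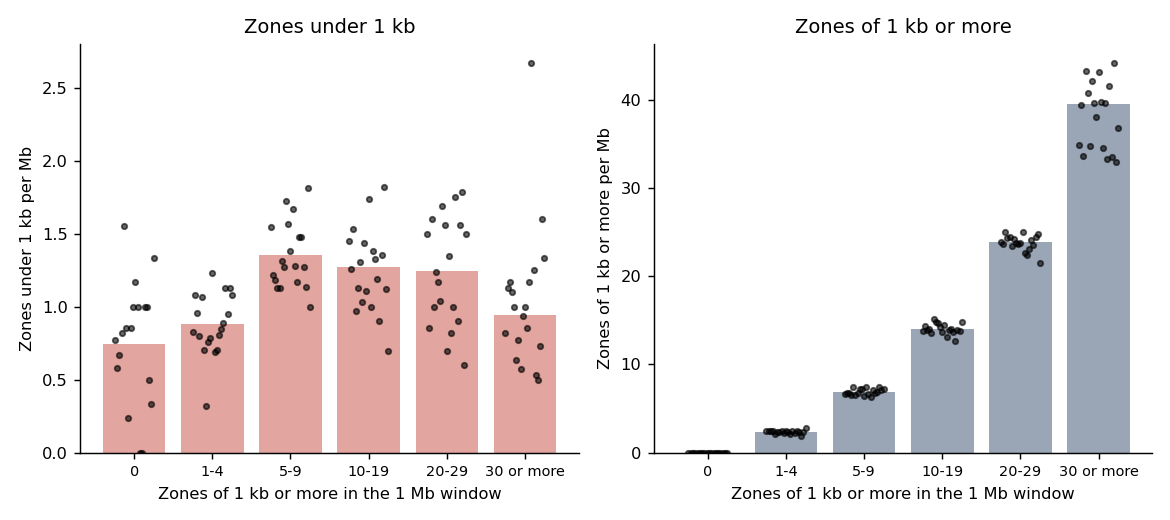
Zones under 1 kb per Mb (left) and zones of 1 kb or more per Mb (right) in 1 Mb windows, classed by the number of zones of 1 kb or more in the window (horizontal axes). Bars give the mean over all windows of a class and points the mean on each autosome. The left bars run from 0.75 to 1.35 with the highest in windows of 5 to 9 wider zones, and the right bars rise to 39.6.

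Seen from a single zone the contrast was the same. Narrow zones had a median of 11 wider zones within 500 kb (quartiles 5 and 19), against 23 for the other zones (quartiles 13 and 35). The median was lower on 19 of 19 autosomes, by a mean of 11.3 zones (SD 4.73). The other zones are themselves the wider zones counted, so their closeness to one another enters their median. A 1 Mb window held a mean of 13.4 wider zones. Narrow zones of 400, 600 and 800 bp had means of 10.4, 13.4 and 13.6 within 500 kb. Of zones with 40 or more wider zones around them 1.73% were narrow, and of zones with none 34.5%. This share, too, falls by construction as wider zones are added. Zones of 1 to 1.8 kb had a median of 15, so narrow zones lay at the end of a gradient over width.

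The counts of narrow zones per window varied little beyond counting error. Of the windows, 806 (33.8%) held no narrow zone, 844 held 1, 469 held 2 and 197 held 3, and the most in any window was 6. The variance of these counts was 1.06 times their mean, where counts with the same expectation in every window give 1. For zones of 1 kb or more it was 11.8 times. Since this ratio grows with the mean, the excess of the variance over the mean was divided by the squared mean, which does not depend on how many zones a class has. This excess was 0.049 for narrow zones and 0.80 for zones of 1 kb or more.

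The excess was low up to a width of 1 kb and rose with width above it. It was 0.068 for zones of 600 bp or less, 0.091 for those of 800 bp and 0.056 for those of 1 kb. It was 0.19 for zones of 1.2 to 1.4 kb, 0.36 for 1.6 to 1.8 kb, 0.77 for 2 to 4.8 kb and 6.01 for 10 kb or more. Zones of 1 kb were thus spread about as evenly as the members, and evenness is not particular to the chosen zones.

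**Figure D4:**
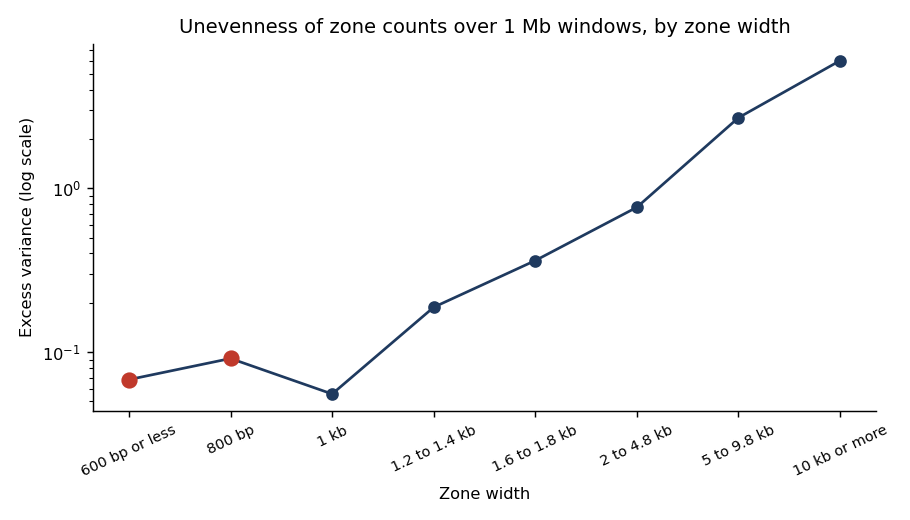
Excess of the variance of zone counts over 1 Mb windows, as (variance minus mean) over the squared mean (vertical axis, log scale), for zones of increasing width (horizontal axis), with the classes under 1 kb in red. The values lie from 0.056 to 0.091 up to a width of 1 kb and climb to 6.01 for zones of 10 kb or more.

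Regions rich and poor in narrow zones were named by rank. The window with most narrow zones was chr17:33000001-34000000, with 6 among 20 zones. Another 22 windows held 5, and the first 4 of them in chromosome order were chr1:20000001-21000000, chr1:21000001-22000000, chr1:77000001-78000000 and chr1:129000001-130000000. Among windows with 10 or more zones, the highest share was in chr8:44000001-45000000, where 5 of 10 zones were narrow. In chr1:77000001-78000000 and chr18:43000001-44000000 it was 5 of 11 (45.5%), and in chr8:69000001-70000000, chr9:94000001-95000000 and chr15:6000001-7000000 it was 4 of 10. Of the 319 windows with 30 or more zones, 123 (38.6%) held no narrow zone, against 33.8% of all windows and 41.9% of those with 1 to 4 wider zones. The window with most zones in the list, chr2:30000001-31000000, was one of them, with 69 zones that were all 1 kb or more.

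Narrow zones followed one another along the chromosome more often than their share of the list gives. Of their 5396 neighbours in order, 844 (15.6%) were narrow, beside 7.69% of all autosomal zones. By distance, the nearest zone was narrow for 15.6% of narrow zones, against 7.5% of all autosomal zones, members included. It was narrow for 6.82% of zones of 1 kb or more and for 11.1% of zones of 1 to 1.8 kb. Where wider zones are few, as given above, a larger share of all zones is narrow. Of the narrow zones, 1949 (72.2%) had no narrow zone next to them in order, 522 were in pairs and 159 in runs of 3. The longest run had 6 narrow zones in a row, chr2:40862001-43581600, over 2719.6 kb. The shortest of the 5 runs of 5 were chr2:78328001-79010600 (682.6 kb), chr5:62290401-63075000 (784.6 kb), chr10:96806201-98007000 (1200.8 kb) and chr5:6536201-7877400 (1341.2 kb). These runs were sparse. All 5 had a gap of 202.4 kb or more before the first zone, and 4 had one of 67.4 kb or more after the last.

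Zones linked by gaps of up to 10 kb form chains, and narrow zones were mostly outside them. Of the members, 2000 (74.0%) were in no chain, 452 in chains of 2, 189 in chains of 3 or 4 and 60 (2.22%) in chains of 5 or more. Most zones of 1 kb or more were in no chain either, at 51.7%, and 12.04% of them were in chains of 5 or more. Narrow zones made up 10.6% of the unlinked zones and 1.51% of the zones in chains of 5 or more. In chains of 3 or more they were 3.48% of the zones at the ends (n = 4362) and 2.00% of those inside (n = 4843). Longer chains have more inside zones per end, and the narrow share was 3.61% in chains of 3 or 4. Chain length thus enters this difference, and ends were not compared with inside zones at the same length.

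Autosomes differed in the share of narrow zones more than in their number. Each autosome had 1.12 narrow zones per Mb of zone span ± 0.13 (SD, n = 19), with the lowest value, 0.84, on chromosome 7 and the highest, 1.34, on chromosome 10. The SD was 11.2% of the mean, against 23.2% for zones of 1 kb or more. The 95% exact Poisson interval left out the value over all autosomes, 1.12 per Mb, on 2 autosomes. On chromosome 7 it was 0.70 to 1.00 and on chromosome 10 it was 1.15 to 1.56. The share was highest on chromosome 3 at 11.3% and lowest on chromosome 11 at 4.66%.

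Autosomes with more wider zones had a smaller share of narrow ones but a similar number. Over the 19 autosomes the share correlated with the wider zones per Mb at Pearson's r = -0.91 (Spearman's rho -0.87). Both quantities are read from the same zones, and the share falls by construction when wider zones are added. The number of narrow zones per Mb correlated at r = -0.36 (rho -0.31). Chromosome 11 had 21.4 wider zones per Mb and 1.04 narrow ones, and chromosome 14 had 9.06 and 1.16.

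**Figure D5:**
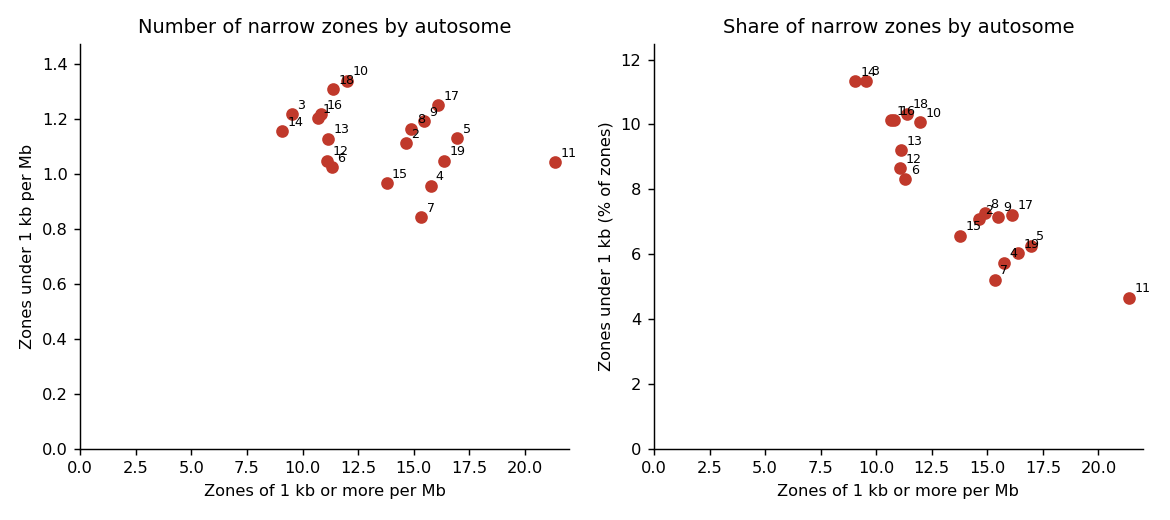
Zones under 1 kb per Mb (left) and as % of the zones (right) against zones of 1 kb or more per Mb (horizontal axes), 1 point per autosome with its number. The left values lie between 0.84 and 1.34 along the whole axis, and the right ones fall from 11.3% on the left to 4.66% on chromosome 11.

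Along the chromosomes the number of narrow zones was even as well. The first 10 Mb of the zone span held 1.11 narrow zones per Mb ± 0.41, the last 10 Mb held 1.12 ± 0.32, and the part between held 1.12 ± 0.14 (SD, n = 19 autosomes). The last 10 Mb had more than the first on 8 autosomes and fewer on 9. The share of narrow zones was 9.78% in the first 10 Mb and 5.23% in the last, lower in the last on 17 of 19 autosomes.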

How the data were processed

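The one file analysed is the deposited list of initiation zones, whose columns hold positions and no score; per the series' design text the authors combined the 3 nascent strand replicates in it. CASAVA 1.8 and SICER, with build mm9, are named per the submitters' processing notes; settings and the use of the controls are not given in the sources used here. Starts were taken as counted from 0 and the last base as part of the zone, and are printed counting from 1. Narrow zones are under 1000 bp wide on chromosomes 1 to 19. Gaps run from edge to edge, neighbours within 500 kb were counted from the edges, and only 1 Mb windows inside the span from the first to the last zone were used, with zones placed by midpoint. Members, limits and alternatives were chosen with earlier results of these data known. Regions were named by rank, 5 each and more where values tied: windows with most narrow zones and with the highest share, loneliest zones, longest runs and zones of 10 kb or more with most narrow flanks, and the extreme autosomes. The 200 bp zones, windows without narrow zones, neighbour shares by density class, excess of variance, rings around zones of 1 kb or more and chromosome ends were added after values were seen. Alternatives changed the width limit, distances, radius and windows, joined close zones and left out each autosome. Functions were tested on simulated data. Python 3.11.15, numpy 2.4.6, pandas 2.3.3, scipy 1.17.1 and matplotlib 3.10.9 were used.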

Additional observations from a re-analysis of the deposited data

Results flagged for a closer look

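Narrow zones also occurred outside the autosomes, in data the comparisons above do not use. Chromosome X held 66 zones under 1 kb among its 369 zones, or 17.9% (95% exact binomial interval 14.1% to 22.2%, for counting error only), above every autosome. Their density was 0.41 per Mb (95% exact Poisson interval 0.31 to 0.52), which is 0.36 of the autosomal mean, and zones of 1 kb or more stood at 0.14 of theirs. Of the 66, 37 (56.1%) had no zone within 100 kb and 3 had one within 10 kb. Chromosome Y held 2 narrow zones among 5.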

How the results depend on the processing

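No alternative turned the direction of a difference between narrow and other zones or between poor and dense windows, but the density ratio of near to far, 0.70, passed to above 1 in 2. Of 179 alternatives, 163 moved a value by less than 1 SD over the autosomes, among them all 133 that left out 1 autosome. Each autosome is a small part of a pooled value, so leaving 1 out could hardly move it by that SD. For the density ratio the SD, 0.72, exceeded the ratio itself. A ratio of 0 for zones of 400 bp or less was therefore also among the 163. In all 77 alternatives for neighbours, flanking and standing alone, narrow zones kept the same side of the other zones. Most of the 16 larger moves follow from a changed distance or width. For a neighbour of any width the share was 14.4% at 5 kb, 40.8% at 20 kb and 15.8% for zones of 400 bp or less. For flanking it was 13.0% at 5 kb, 37.5% at 20 kb, 4.55% and 1.00% against zones of 5 and 10 kb or more, and 13.2% for zones of 400 bp or less. For standing alone it was 35.4% at 50 kb, 8.37% at 200 kb and 30.3% for zones of 400 bp or less. The difference in wider zones nearby was -7 within 250 kb and -20 within 1 Mb. The difference in share between poor and dense windows was 0.96 percentage points for zones of 400 bp or less and 49.6 for zones under 1.6 kb. That ratio became 1.44 around zones of 1 kb or more and 0.86 without the sequence within 800 bp of a zone of 1 kb or more, both chosen after seeing the data, and 1.17 for zones under 1.6 kb, so its direction is not settled. Joining zones under 2 kb apart removed 150 narrow zones and left their share at 8.05%. No paired analysis was possible because 1 pooled list holds the 3 cultures together; no culture could be left out either. Depth is unknown, so weak zones that were not called cannot be bounded.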
